A study of Mus musculus with 12 samples.

Results

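Lowering TRAX in the striatum of R6/2 mice is described here from 6 of the 12 libraries of a study of total RNA. The 6 are the 3 libraries of R6/2 mice given an adeno-associated virus (AAV) with a short hairpin RNA (shRNA) against TRAX, called R6/2-T, and the 3 of R6/2 mice given the control AAV, called R6/2-C. They were chosen by their labels, and no measured value was used. The other 6 are wild-type mice with the control AAV (WT-C) or the TRAX AAV (WT-T), 3 libraries each, and they serve here as the matching contrast without the disease gene. Per the labels, all mice carried the strain label B6CBAFI/J and were 10.5 weeks old, with the AAV put into the striatum of both hemispheres at 5 weeks, each spot receiving 2 µl with 2.5e9 vector genomes in every µl. R6/2 mice, given in the labels as B6CBA-Tg(HDexon1)62Gpb/3J, express exon 1 of the human huntingtin gene from a transgene, next to their own Htt genes. Every library, controls included, thus comes from a striatum that had been injected, and the labels give neither the promoter of the shRNA nor the share of cells reached. Whether each library is a separate animal is also not stated, and p-values then describe how far libraries vary, which may be technical.

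TRAX, encoded by Tsnax, is the partner of translin (Tsn). The pair forms an endonuclease that clears the passenger strand from Argonaute, and TRAX also binds the adenosine receptor encoded by Adora2a and the scaffold protein DISC1 in neurons. The striatum consists mostly of spiny projection neurons: those of the direct pathway carry dopamine D1 receptors and make dynorphin and substance P, and those of the indirect pathway carry dopamine D2 and adenosine receptors and make enkephalin. In Huntington's disease models these neurons lose much of their characteristic messenger RNA. In bulk tissue, fewer cells of a type and less RNA per cell cannot be told apart.

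One library stood apart from its group. Over 11530 genes, the control library R6/2-C 2 lay nearer to the R6/2-T libraries (mean absolute difference of 0.259 on the log2 scale) than to the other R6/2-C libraries (0.294). R6/2-C 1 and R6/2-C 3 lay farther from R6/2-T (0.334 and 0.332) than from their own group (0.280 and 0.257). The R6/2-T libraries differed from each other by 0.157 to 0.177. Many results are therefore given with and without R6/2-C 2. Leaving out the control most like R6/2-T can by itself widen the contrast. Calls gained without it are thus a description and no check of the calls. Libraries held 32206234 to 56717285 fragments in these groups, as recovered from the deposited Cuffdiff columns.

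The targeted gene followed the labels. In StringTie counts scaled to a common library size (CPM), Tsnax had 197, 168 and 189 in R6/2-C and 44.7, 39.99 and 47.0 in R6/2-T. The groups lie far apart, and R6/2-T kept 23.8% of the control level (log2 change −2.07, SE 0.11, edgeR adjusted p = 1.18e-05). In the fragments recovered from the Cuffdiff columns the change was −2.09, and in the 25 other fits run it lay between −2.17 and −1.95 and passed the test each time. Tsnax lies on chromosome 8 of GRCm38, from 125012997 to 125034192 on the plus strand, and an antisense model, Gm45874, overlaps it.

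The other genes of the TRAX complex did not pass. Tsn had 80.1, 71.9 and 85.2 CPM in R6/2-C and 89.2, 84.3 and 87.5 in R6/2-T (log2 change 0.14, SE 0.09, edgeR adjusted p = 0.424). Disc1, a rare transcript here, had 0.807, 1.13 and 1.05 CPM against 0.784, 0.677 and 0.995 (−0.28, SE 0.24). Gsk3b, which encodes a kinase linked to TRAX in neurons, had 244, 289 and 269 against 353, 335 and 331 (0.35, SE 0.13, adjusted p = 0.182). The Tsn and Disc1 groups overlap and the Gsk3b groups do not. Once transcript length and GC content were taken out of each library, as described further on, the log2 change was near 0 for Gsk3b and −0.15 for Tsn. Of the 10 genes listed for the complex, Tsnax was the only call.

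Beside Tsnax few genes passed. Of 23453 genes tested in the StringTie counts, edgeR called 16 at an adjusted p under 0.05 (0.0682% of all genes), 12 higher in R6/2-T (0.0512%) and 4 lower (0.0171%). With the limit at 0.06 in place of 0.05, 101 genes would have passed, and 4513 had an unadjusted p under 0.05 (19.2%). In all 16 the R6/2-T and R6/2-C libraries do not overlap, which held for 27% of all genes tested (14.1% higher, 12.9% lower). Only Tsnax and Phf3 remained called whichever of the 6 libraries was left out. The total was 4 without R6/2-C 1, 2 without R6/2-C 3, and 4, 2 and 2 without R6/2-T 1, 2 and 3, but 1197 without R6/2-C 2 (4.93%), of which 943 were higher (3.88%) and 254 lower (1.05%).

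**Figure D1:**
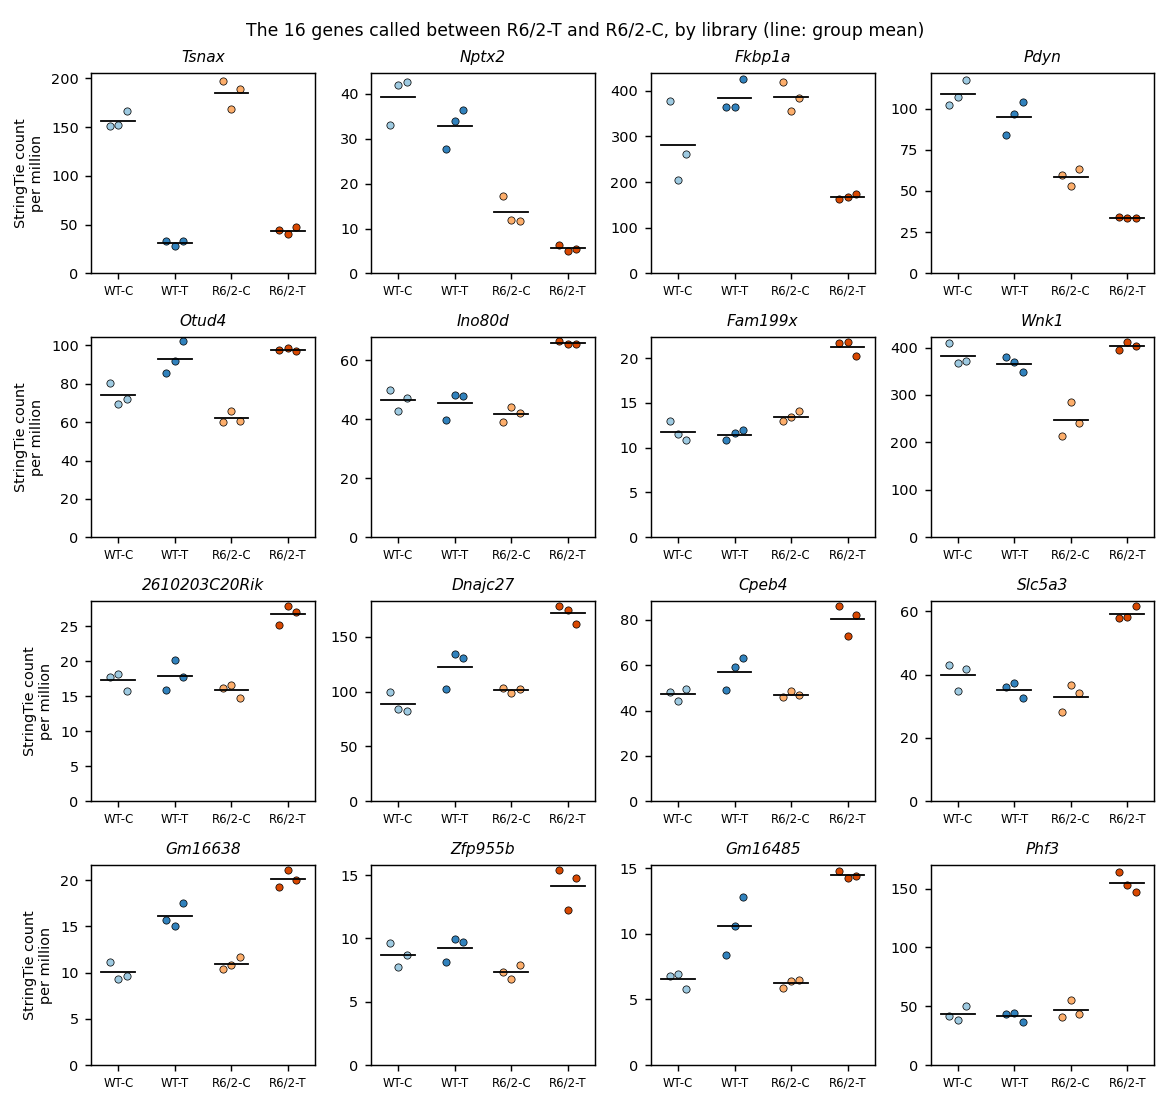
StringTie CPM of the 16 called genes in each of the 12 libraries, with points for libraries and lines for group means; axes start at 0. In each panel the R6/2-T points lie wholly above or wholly below the R6/2-C points, as with Tsnax, which kept 23.8% of the control level.

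Among the 4 lower genes, the remaining 3 are neuronal or widely expressed. Pdyn encodes prodynorphin, the opioid peptide precursor of direct pathway neurons. It had 59.9, 52.7 and 63.4 CPM in R6/2-C and 34.0, 33.7 and 33.6 in R6/2-T, so that the R6/2-T libraries nearly coincide. Its log2 change was −0.80 (SE 0.10, edgeR adjusted p = 0.0292). Pdyn was already lower in R6/2-C than in WT-C, where it had 102, 107 and 117 CPM (−0.89, SE 0.10); these contrasts share the R6/2-C libraries. With the shRNA in wild-type mice it had 83.9, 96.4 and 104 CPM (−0.20).

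Nptx2 encodes a secreted neuronal pentraxin that clusters AMPA receptors at excitatory synapses. It had 17.2, 11.8 and 11.8 CPM in R6/2-C and 6.41, 5.10 and 5.32 in R6/2-T. Every R6/2-T library had less than any control, and the log2 change was −1.28 (SE 0.18, edgeR adjusted p = 0.0401). The WT-C libraries had 33.1, 42.0 and 42.7 CPM and the WT-T libraries 27.7, 34.1 and 36.5, which overlap. Without R6/2-C 2 the changes were −1.37 for Nptx2 and −0.87 for Pdyn, both called. Without any other single library of these groups neither was called.

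Fkbp1a encodes FKBP12, the isomerase that binds FK506 and rapamycin. It had 418, 356 and 385 CPM in R6/2-C and 163, 168 and 173 in R6/2-T by StringTie (−1.20, SE 0.18, edgeR adjusted p = 0.0492). The recovered fragments gave 526, 410 and 493 against 387, 376 and 399 (−0.30, adjusted p = 0.131), a gap smaller by far and not called. The fall of Fkbp1a thus depends on which deposited column is read.

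The 12 higher genes hold several regulators of RNA, chromatin and ion transport. Phf3, which encodes a PHD finger protein that binds the tail of RNA polymerase II, had 41.2, 55.6 and 43.5 CPM in R6/2-C and 164, 153 and 147 in R6/2-T. By StringTie it was 3.31-fold higher (log2 change 1.72, SE 0.14, edgeR adjusted p = 0.00073). In the recovered fragments Phf3 had 117, 152 and 121 CPM against 185, 172 and 164 (0.42, adjusted p = 0.056). Its groups do not overlap in either column, but the size differs and the second did not pass. Its models on chromosome 1 overlap Gm37522 and Gm37906 on the same strand.

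Cpeb4 encodes a protein that controls translation through the poly(A) tails of its targets. It had 45.9, 48.4 and 46.9 CPM in R6/2-C and 86.2, 72.8 and 82.1 in R6/2-T (0.77, SE 0.11, edgeR adjusted p = 0.0401; 0.47 in recovered fragments, adjusted p = 0.043). Otud4, a deubiquitinase gene, had 59.8, 66.0 and 60.6 CPM against 97.7, 98.6 and 96.9 (0.65, SE 0.09). Both are higher in every R6/2-T library than in any R6/2-C library. Otud4 in wild-type mice reached 85.6, 91.6 and 102 CPM under the shRNA and 80.5, 69.4 and 72.2 with the control virus, which was not called (0.33, adjusted p = 0.47).

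Slc5a3, which encodes the sodium-coupled myo-inositol transporter, had 28.1, 36.6 and 34.2 CPM in R6/2-C and 57.7, 58.3 and 61.6 in R6/2-T (0.84, SE 0.12). Mrps6 overlaps it on the same strand, so counts could be divided between them. Wnk1, the kinase gene that controls cation-chloride cotransporters, had 213, 286 and 241 CPM against 395, 412 and 404 (0.71, SE 0.11). Its R6/2-T libraries lie near the WT-C values of 409, 368 and 372, and Wnk1 was lower in R6/2-C than in WT-C (−0.63, SE 0.11, edgeR adjusted p = 0.00683), again with shared R6/2-C libraries. No gene other than Pdyn, Nptx2 and Wnk1 among the 16 was called in that genotype contrast.

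Dnajc27, which encodes a J-domain protein with a small GTPase fold, had 103, 98.9 and 103 CPM in R6/2-C and 178, 175 and 162 in R6/2-T (0.76, SE 0.11). Ino80d, a subunit gene of the INO80 chromatin remodeller, had 39.1, 44.2 and 42.3 against 66.5, 65.5 and 65.7 (0.65, SE 0.10). The zinc finger gene Zfp955b (0.94, SE 0.14) and Fam199x (0.66, SE 0.10) complete the named genes. Zfp955b is one of a family of similar zinc finger genes, and whether it shares reads with them was not tested. The 3 called models without a gene name, which the naming rule leaves out and which were added after their values were seen, are Gm16485 (1.21), Gm16638 (0.87) and 2610203C20Rik (0.75). Gm16638 is antisense to Tmc3, and without knowing whether counting used the strand their reads cannot be told apart. 2610203C20Rik spans Mir100, Mirlet7a-2 and Mir125b-1.

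**Figure D2:**
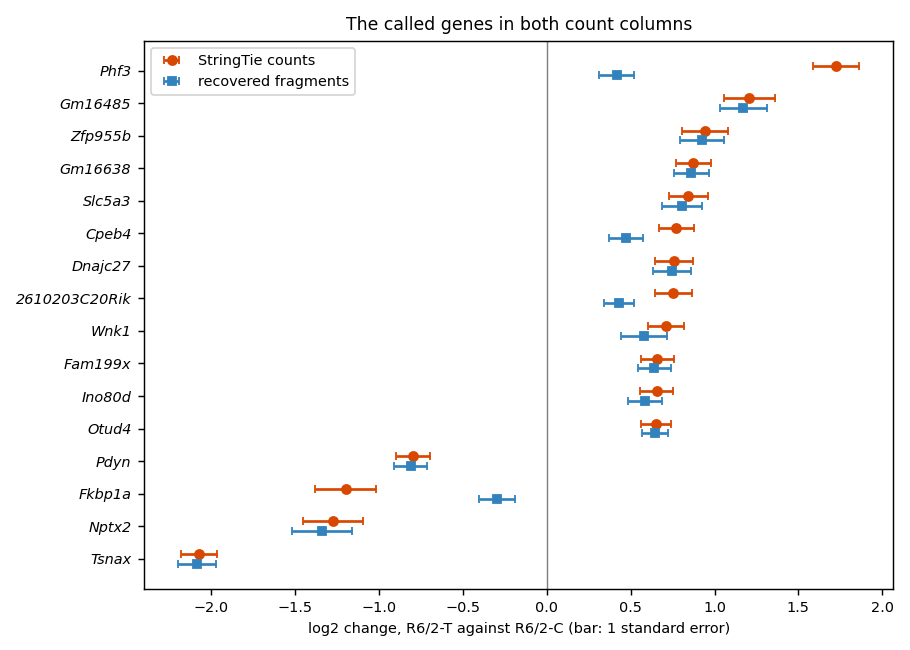
Log2 change of R6/2-T against R6/2-C for the 16 called genes, from the StringTie counts (circles) and from fragments recovered from the Cuffdiff columns (squares); bars are 1 standard error. The pairs nearly coincide except for Phf3 (1.72 against 0.42), Fkbp1a (−1.20 against −0.30), Cpeb4 (0.77 against 0.47) and 2610203C20Rik.

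Both sources called 14 of the 16, and only Phf3 and Fkbp1a were called by StringTie alone. The recovered fragments held more calls, 504 of 18776 genes (2.68%), 369 higher (1.97%) and 135 lower (0.719%). Of these 504, 390 had a StringTie adjusted p under 0.1 and 500 the same direction there. That total also rested on single libraries: it was 1 without R6/2-C 1, R6/2-C 3, R6/2-T 1 or R6/2-T 2, 2 without R6/2-T 3, and 1930 without R6/2-C 2. Other tools on the same libraries called 1741 of 23405 genes (DESeq2, StringTie counts, 1078 higher and 663 lower) and 101 of 17528 (limma on log2(FPKM + 0.5), 50 higher and 51 lower).

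Genes called in recovered fragments alone included membrane and signalling genes in both directions. Prmt8, a brain-specific arginine methyltransferase gene, had 61.3, 61.6 and 59.2 fragment CPM in R6/2-C and 40.6, 38.9 and 38.9 in R6/2-T (log2 change −0.62, SE 0.09, edgeR adjusted p = 0.0228). Gp1bb, a platelet receptor subunit gene, had 20.7, 17.8 and 16.2 against 6.72, 7.57 and 8.51 (−1.26, SE 0.18). Slc35c2 changed by −0.68. The co-receptor gene Cd4 had 33.1, 42.8 and 31.6 against 13.9, 15.2 and 21.2 (−1.09, SE 0.16), while the T cell gene Cd3e had 0.269 to 4.23 CPM in R6/2-C and 0.216 to 0.631 in R6/2-T by StringTie. Cd4 was also lower in R6/2-C than in WT-C, by −1.57.

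On the higher side, the progesterone receptor gene Pgr had 14.7, 17.7 and 15.9 fragment CPM in R6/2-C and 36.9, 35.8 and 37.0 in R6/2-T (log2 change 1.19, SE 0.18, edgeR adjusted p = 0.0229). Wnk3, a relative of Wnk1 with the same class of targets, had 28.6, 37.0 and 29.4 against 66.0, 60.9 and 58.5 (0.96, SE 0.14). Mta3, a gene of the NuRD chromatin complex, changed by 0.61, the transporter gene Abcc1 by 0.64, Rbm41 by 0.83 and Elmod2 by 0.72. By StringTie these 6 had adjusted p-values of 0.052 (Pgr), 0.053 (Wnk3), 0.051 (Mta3), 0.051 (Abcc1), 0.081 (Rbm41) and 0.285 (Elmod2).

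Genes of the striatal projection neurons were lower on balance, mostly without passing the test. Their summed level overlapped, at 10597, 11181 and 8664 CPM in R6/2-C and 8824, 8450 and 9023 in R6/2-T. Of 28 such genes, edgeR called 0 in StringTie counts, 15 had an unadjusted p under 0.05, and DESeq2 called 7 and limma 6, all lower. Over all genes DESeq2 called 1741 of 23405 and limma 101 of 17528, and 19.2% had an unadjusted p under 0.05 in edgeR. The list's median log2 change was −0.30, against −0.03 over all genes, with 21 changes negative and 7 positive. R6/2-T lay wholly below R6/2-C for 15 and wholly above for 1, against 12.9% and 14.1% of all genes. The same shares over all genes apply to the list counts that follow. Recovered fragments called 4 of the 28, all lower. Kcnip2, the potassium channel-interacting protein gene, had 93.7, 94.1 and 76.8 CPM in R6/2-C and 49.6, 49.0 and 54.3 in R6/2-T (−0.79 by StringTie, adjusted p = 0.053; −0.80 in fragments, adjusted p = 0.0256). Ppp1r1b, which encodes DARPP-32, the dopamine-regulated inhibitor of protein phosphatase 1, had 898, 751 and 741 CPM against 454, 479 and 511 (−0.73, edgeR adjusted p = 0.0839; −0.75 in fragments, adjusted p = 0.0431). Itpka (−0.78) and the sodium channel gene Scn4b (−0.56) were the others called in fragments. A fall of like size was not limited to striatal genes. The 11 cortical excitatory neuron genes had a median of −0.36, with 9 changes negative, 2 positive and 0 called by edgeR. They summed to 529 to 642 CPM in R6/2-C and 429 to 493 in R6/2-T.

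The projection neuron genes were also lower in R6/2-C than in WT-C, by a median of −0.89, a contrast that shares R6/2-C. Ppp1r1b, for example, had 1636, 2165 and 1621 CPM in WT-C. Under the shRNA in wild-type mice the list had a median of 0.03, with 1395, 1823 and 2237 CPM of Ppp1r1b in WT-T, which overlap WT-C. Other members varied more than they differed. By StringTie Pde10a, the striatal phosphodiesterase, had 529, 779 and 179 CPM in R6/2-C and 646, 267 and 619 in R6/2-T (0.04, SE 0.51), a spread wider than any difference. In fragments Pde10a had 530, 761 and 473 against 647, 543 and 613 (0.03, SE 0.18), so the low values of 179 and 267 depend on the column read. Its sign changed in 9 of the other fits.

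Both pathway lists were lower in sum in every R6/2-T library. The 8 indirect pathway genes summed to 893, 986 and 738 CPM in R6/2-C and 629, 667 and 669 in R6/2-T, which do not overlap, with a median log2 change of −0.39. Adora2a, Drd2 and Penk make up most of each sum. Of the 8 changes 6 were negative and 2 positive, and 4 genes lay wholly lower and 0 wholly higher. The median CPM of the 8 genes overlapped, at 87.7, 96.3 and 72.3 in R6/2-C and 85.5, 81.7 and 87.0 in R6/2-T. Adora2a, the adenosine receptor gene whose product binds TRAX, had 231, 195 and 187 CPM against 125, 150 and 144 (−0.55, SE 0.16, edgeR adjusted p = 0.114; −0.63 in fragments, adjusted p = 0.0485). The D2 receptor gene Drd2 had 198, 198 and 138 against 124, 126 and 129 (−0.50, SE 0.15, adjusted p = 0.129). The enkephalin precursor gene Penk had 217, 325 and 212 against 142, 160 and 161 (−0.71, SE 0.28, adjusted p = 0.2). In fragments Penk had 413, 314 and 369 against 256, 259 and 258 (−0.50, SE 0.12, edgeR adjusted p = 0.0504). There R6/2-C 2 was the lowest control, while by StringTie it was the highest. Without R6/2-C 2 the StringTie change of Penk was −0.48 (edgeR adjusted p = 0.362). In all 3 the R6/2-T libraries lie below every R6/2-C library, and none passed in StringTie counts. In this list edgeR called 0, with 4 at an unadjusted p under 0.05, and DESeq2 1, Adora2a.

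The 10 direct pathway genes summed to 706, 629 and 631 CPM in R6/2-C and 560.1, 497 and 550.1 in R6/2-T, which do not overlap either. Pdyn was the only call and the median was −0.22, with 8 of 10 changes negative, 3 genes wholly lower, none wholly higher and 4 at an unadjusted p under 0.05. Drd1, the D1 receptor gene, had 128, 131 and 120 CPM in R6/2-C and 118, 95.4 and 111 in R6/2-T (−0.22, SE 0.10, edgeR adjusted p = 0.267). Tac1, the substance P precursor gene, had 192, 143 and 183 against 145, 112 and 133 (−0.41, SE 0.14, adjusted p = 0.156), which overlap. Without R6/2-C 2 Tac1 changed by −0.53 (edgeR adjusted p = 0.0496). Eya1, Isl1 and Ebf1, regulators of transcription picked after their values were seen, had log2 changes of 0.28, −0.03 and 0.01, none called. Eya1 and Ebf1 hold the only 2 positive changes of the list, and the members not printed here were all negative. With GC content and length taken out Isl1 had 0.04 and Ebf1 −0.19.

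Neuropeptide and activity-regulated genes had the more negative medians among neuronal lists. Of 22 genes for secreted and peptide products, Pdyn and Nptx2 were called, 11 lay wholly lower in R6/2-T, none wholly higher, and the median was −0.45. Their sum was 1455, 1348 and 1342 CPM in R6/2-C, and all R6/2-T libraries were lower, at 1039, 1016 and 1042.5. Bdnf, the neurotrophin gene, had 1.43, 0.869 and 1.63 CPM against 0.641, 0.677 and 0.792 (−0.90, SE 0.30, edgeR adjusted p = 0.152). Vgf, a neurotrophin-induced peptide precursor gene, had 164, 89.1 and 105 against 65.0, 68.9 and 77.9 (−0.76, SE 0.24, adjusted p = 0.14).

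Of 19 immediate-early genes, which neurons switch on within minutes of activity, edgeR called 0, with 7 at an unadjusted p under 0.05, DESeq2 5 and limma 0. The median was −0.56, and 8 lay wholly lower in R6/2-T. Junb had 74.6, 43.9 and 46.6 CPM in R6/2-C and 28.8, 31.1 and 37.1 in R6/2-T (−0.77, SE 0.22, edgeR adjusted p = 0.111), and Ier2 had a change of −0.59. Their summed level overlapped, with 1111, 818 and 630.0 CPM in R6/2-C and 589, 625 and 756 in R6/2-T, and R6/2-C 1 was the highest. With single libraries left out in turn the list's median ran from −0.68 to −0.24. In wild-type mice the same list had a median of 0.35 under the shRNA, and the difference between genotypes was not tested for the list.

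**Figure D3:**
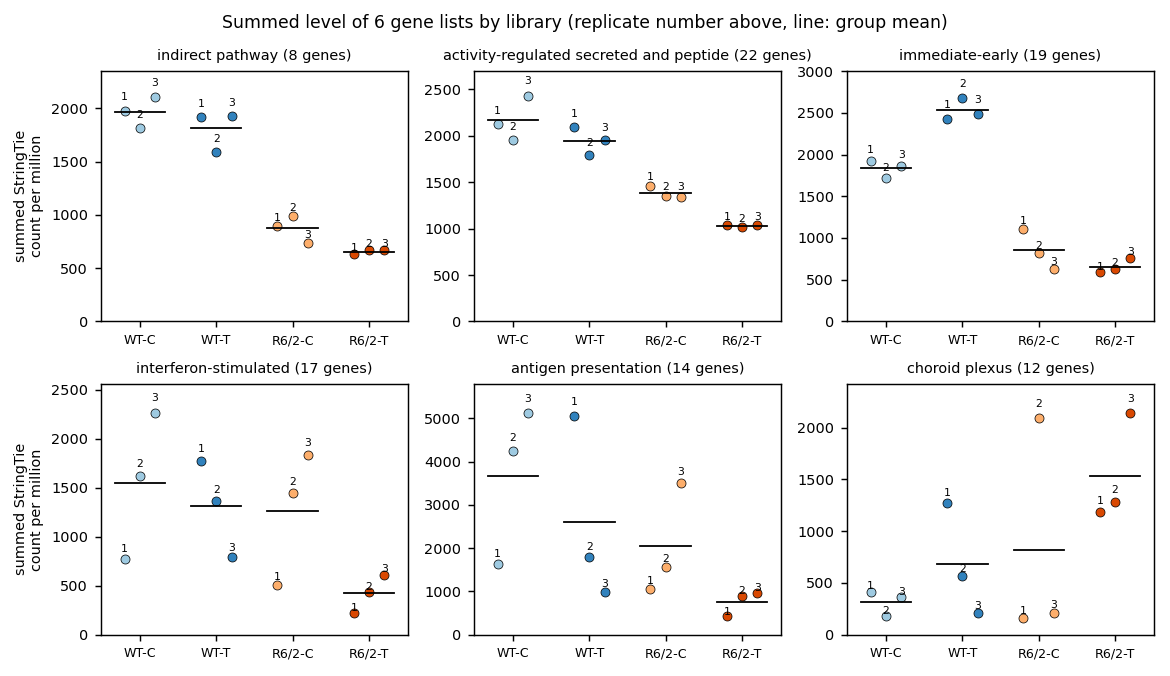
Summed StringTie CPM of 6 gene lists in each of the 12 libraries, with the replicate number above each point and a line at the group mean. The R6/2-T libraries lie below R6/2-C for the indirect pathway and peptide lists, while the interferon, antigen presentation and choroid plexus lists spread widely within the control groups.

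Genes for small RNA pathways, in which the translin-TRAX nuclease works, had mostly positive changes (17 of 19). Of these 19, edgeR called 0 in StringTie counts, with 11 at an unadjusted p under 0.05, DESeq2 8 and limma 0. R6/2-T lay wholly higher for 13 and wholly lower for none, and the median log2 change was 0.30. The Argonaute gene Ago3 had 35.7, 50.5 and 32.6 CPM in R6/2-C and 68.9, 66.2 and 68.0 in R6/2-T (0.77, SE 0.17, edgeR adjusted p = 0.075; 0.76 in fragments, adjusted p = 0.0384). Ago1 had 72.3, 99.1 and 63.6 against 114, 114 and 122 (0.58, SE 0.15, adjusted p = 0.0927). Drosha, which cuts primary microRNAs in the nucleus, had 91.2, 104 and 87.1 against 118, 111 and 119 (0.30). Ago3, Ago1 and Drosha were the 3 called in fragments.

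R6/2-C 2 is the highest control for each of those 3 genes. Without it edgeR called 9 of the 19, all higher, among them Dicer1 (0.51) and Ago2 (0.76), whose changes over all libraries were −0.05 and −0.01 once GC content and length were taken out. Dicer1 had 53.9, 73.9 and 57.9 CPM in R6/2-C and 80.5, 78.3 and 79.4 in R6/2-T. With GC and length taken out the median was 0.09 and edgeR called 0 in StringTie counts and 1, Drosha, in fragments.

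Double-strand break repair genes and glutamate receptor genes had smaller positive medians. Of 21 repair genes edgeR called 0, with 9 at an unadjusted p under 0.05, DESeq2 5 and limma 0, and the median was 0.21, with 8 wholly higher and 2 wholly lower. Prkdc, the DNA-dependent protein kinase gene, had 28.7, 34.9 and 25.7 CPM in R6/2-C and 46.0, 46.8 and 45.7 in R6/2-T (0.63, SE 0.12, edgeR adjusted p = 0.0553; 0.64 in fragments, adjusted p = 0.0252). After the GC and length correction Prkdc had a change of 0.09. Of 25 glutamate and postsynaptic genes, with a median of 0.17, edgeR called 0, DESeq2 2 and limma 0. The DESeq2 count is near its share over all genes. Of the 25, 3 had an unadjusted p under 0.05, a smaller share than the 19.2% of all genes. Fragments called the NMDA receptor genes Grin2a and Grin2b. Grin2a had 67.8, 93.1 and 61.4 CPM against 127, 113 and 122 (0.70; 0.11 after the correction). The mouse Htt gene had 127, 163 and 114 CPM against 187, 186 and 183 (0.47, edgeR adjusted p = 0.148; −0.01 after the correction). Without R6/2-C 2 and uncorrected, Htt changed by 0.63 (edgeR adjusted p = 0.0405).

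The interferon, antigen presentation and reactive glia lists had the most negative medians in R6/2-T. DESeq2 called members of each, and edgeR in StringTie counts and limma called none. Of 17 interferon-stimulated genes edgeR called 0, though all 17 had an unadjusted p under 0.05, DESeq2 called 13 and limma 0. Their median was −1.78. They summed to 512, 1450 and 1834 CPM in R6/2-C and 221, 434 and 613 in R6/2-T, so that R6/2-C 1 falls inside the R6/2-T range. The antiviral gene Mx1 had 2.70, 11.3 and 11.9 CPM against 1.05, 0.875 and 2.19 (−2.65, SE 0.71, edgeR adjusted p = 0.105). The same list spanned 773 to 2268 CPM in WT-C and 794 to 1774 in WT-T.

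Of 14 antigen presentation genes edgeR called 0, with 9 at an unadjusted p under 0.05, DESeq2 2 and limma 0, and the median was −1.77. They summed to 1065, 1566 and 3515 CPM in R6/2-C and 433, 903 and 956 in R6/2-T, which do not overlap, and 11 of 14 lay wholly lower. Cd74, the invariant chain gene of class II antigen presentation, had 112, 240 and 615 CPM in R6/2-C and 23.0, 79.4 and 62.8 in R6/2-T, beside 234, 1003 and 1290 in WT-C. Of 17 reactive glia and complement genes edgeR called 0, with 9 at an unadjusted p under 0.05, DESeq2 6 and limma 0, and the median was −1.18. Their sums of 1181 to 2616 CPM in R6/2-C lie above the 906 to 1033 in R6/2-T, with no overlap, and 10 of 17 lay wholly lower. The complement gene C1qb had 74.8, 115 and 218 CPM against 30.5, 47.1 and 54.0 (−1.63, SE 0.52, edgeR adjusted p = 0.143), and the astrocyte filament gene Gfap had 258, 539 and 637 against 177, 238 and 217 (−1.18, SE 0.47). The microglial gene Tmem119 had 47.1, 47.7 and 78.0 against 25.7, 34.6 and 30.6 (−0.93, SE 0.27). Of 16 microglial genes edgeR called 0, with 6 at an unadjusted p under 0.05, DESeq2 3 and limma 0, and the median was −0.34, with 14 changes negative and 5 genes wholly lower. The list summed to 1601 to 2139 CPM in R6/2-C and 1406 to 1590 in R6/2-T.

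Choroid plexus genes, which mark tissue next to the striatum, moved with the library that stood apart. Their sum was 158, 2091 and 207 CPM in R6/2-C, with R6/2-C 2 the high one, and 1183, 1286 and 2143 in R6/2-T. Ttr, the transthyretin gene, had 97.0, 1542 and 131 CPM against 825, 969 and 1495. In wild-type mice the sum spanned 182 to 417 CPM in WT-C and 212 to 1275 in WT-T. All 12 genes had a positive change in R6/2, with a median of 0.97 in the 6 libraries and 3.00 without R6/2-C 2. With all libraries edgeR, DESeq2 and limma each called 0 of the 12, and 0 reached an unadjusted p of 0.05 in edgeR, while 7 were called without R6/2-C 2. The part of this tissue in the other results was not tested.

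Changes ran from negative in short transcripts to positive in long ones. Over 14829 genes whose log2 CPM averaged 1 or more, the log2 change of R6/2-T against R6/2-C had a Spearman correlation of 0.51 with the length of the longest transcript and −0.33 with its GC content. Genes are not independent and share these libraries, so this is a description. Genes with transcripts under 1000 bases had a median change of −0.26, and those of 10000 bases or more 0.48, of which 92.7% were above 0. For WT-T against WT-C the correlation with length was −0.04 and with GC content 0.31. The called genes followed this: the 12 higher ones had a median length of 7461 bases and the 4 lower ones 2389, against 2686 for all genes tested.

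Per library, the mean log2 deviation of 1385 long genes (7000 bases or more) minus that of 3311 short genes (under 2000 bases) was 0.346, 0.327 and 0.302 in R6/2-T. It was −0.440, 0.0815 and −0.364 in R6/2-C, where R6/2-C 2 again lies nearest to R6/2-T. The difference between the groups was 0.566 (two-sided exact permutation test p = 0.1, the smallest that 3 against 3 allow). In wild-type mice it was −0.02 (exact permutation p = 0.9). Whether this pattern arose in the tissue, the RNA or the libraries was not tested.

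**Figure D4:**
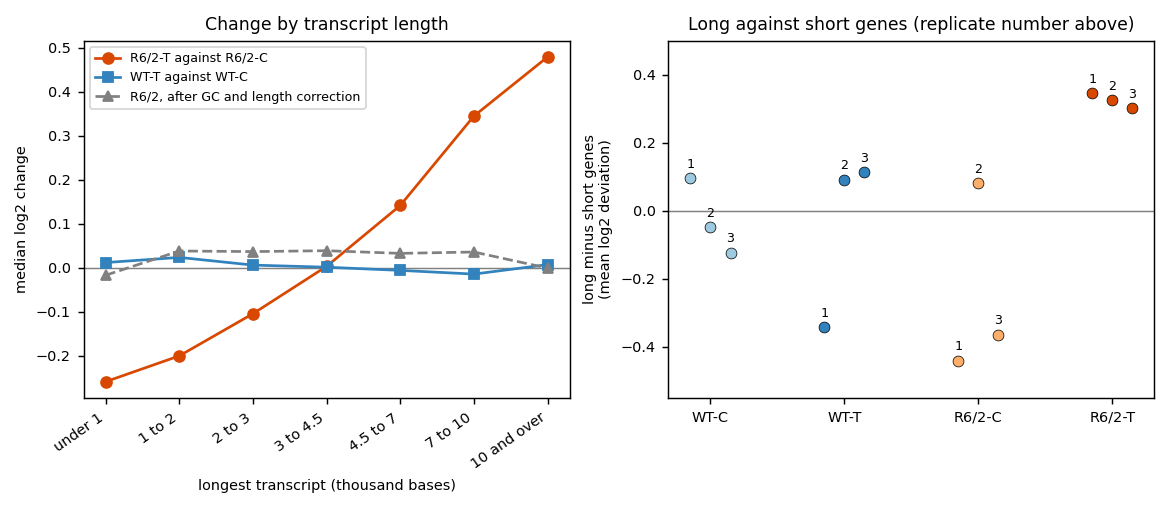
Left, median log2 change of genes by the length of the longest transcript, for R6/2-T against R6/2-C, for WT-T against WT-C, and for R6/2 after a correction for GC content and length; right, long minus short genes per library. The R6/2 line climbs from −0.26 to 0.48 and the wild-type line stays near 0. The corrected line is near 0 because the correction takes length out. The 3 R6/2-T libraries lie at 0.302 to 0.346, above every other library.

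With GC content and length taken out of each library by a smooth curve, edgeR called 6 of 23354 genes in StringTie counts (0.0257%): Tsnax (−1.96), Phf3 (1.43), Gm16485 (1.14), and also Wars (0.76), Mta3 (0.72) and Epop (−1.17), of which Wars and Epop were named after their values were seen. In recovered fragments with the same correction Phf3 had 0.14 (edgeR adjusted p = 0.326). Of the 6, 4 were higher (0.0171%) and 2 lower (0.00856%). Pdyn (−0.62, adjusted p = 0.0762) and Nptx2 (−1.04, adjusted p = 0.0715) kept most of their change but not the call. In recovered fragments with the same correction edgeR called 44 genes (0.235%), 27 higher (0.144%) and 17 lower (0.0908%). Tsnax, Nptx2 (−1.09), Pdyn (−0.62), Dnajc27 (0.70), Zfp955b (0.75), Wnk3 (0.63), Pgr (0.95) and Cd4 (−0.97) were among them. Ino80d (0.06), Wnk1 (0.25), Fam199x (0.26), Otud4 (0.36) and Slc5a3 (0.36) were not called after it in StringTie counts. Nor were Cpeb4 (0.51), Gm16638 (0.51), 2610203C20Rik (0.68), Fkbp1a (−0.96), Dnajc27 (0.70) and Zfp955b (0.74). Cpeb4 was not called in corrected fragments either (0.24, edgeR adjusted p = 0.158). The median was then −0.34 for projection neuron genes and −0.30 for the indirect list. Without R6/2-C 2 the corrected StringTie counts gave 178 calls (0.736%), 119 higher (0.492%) and 59 lower (0.244%).

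The same virus in wild-type mice gave a contrast with other libraries throughout. There edgeR called 1 of 23453 genes (0.00426%), Tsnax itself (−2.32), and groups did not overlap for 11.2% of genes, 5.28% with WT-T higher and 5.88% with WT-T lower. Among genes called in R6/2, Gm16638 (0.68), Gm16485 (0.70), Dnajc27 (0.46) and Otud4 (0.33) were higher in every WT-T than in any WT-C library. These were not called (edgeR adjusted p = 0.137, 0.343, 0.395 and 0.47). Phf3, Slc5a3, Ino80d, Fam199x, Wnk1 and Fkbp1a had changes of the opposite sign in wild-type mice. A test of whether the shRNA acted differently in the 2 genotypes (R6/2 minus wild type) called 1 gene, Phf3 (interaction log2 1.79, edgeR adjusted p = 0.0302). The WT-C libraries held 41.3, 38.0 and 50.1 CPM of Phf3, and those of WT-T overlapped them at 43.2, 44.2 and 36.7. In recovered fragments edgeR called 0 genes for this interaction, with 2735 at an unadjusted p under 0.05, and DESeq2 called 190 in StringTie counts; without R6/2-C 2 edgeR called 29. For Tsnax the difference of the changes was 0.25 (edgeR adjusted p = 0.52), and for Pdyn −0.60 and Nptx2 −1.01 (adjusted p = 0.346 each).

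**Figure D5:**
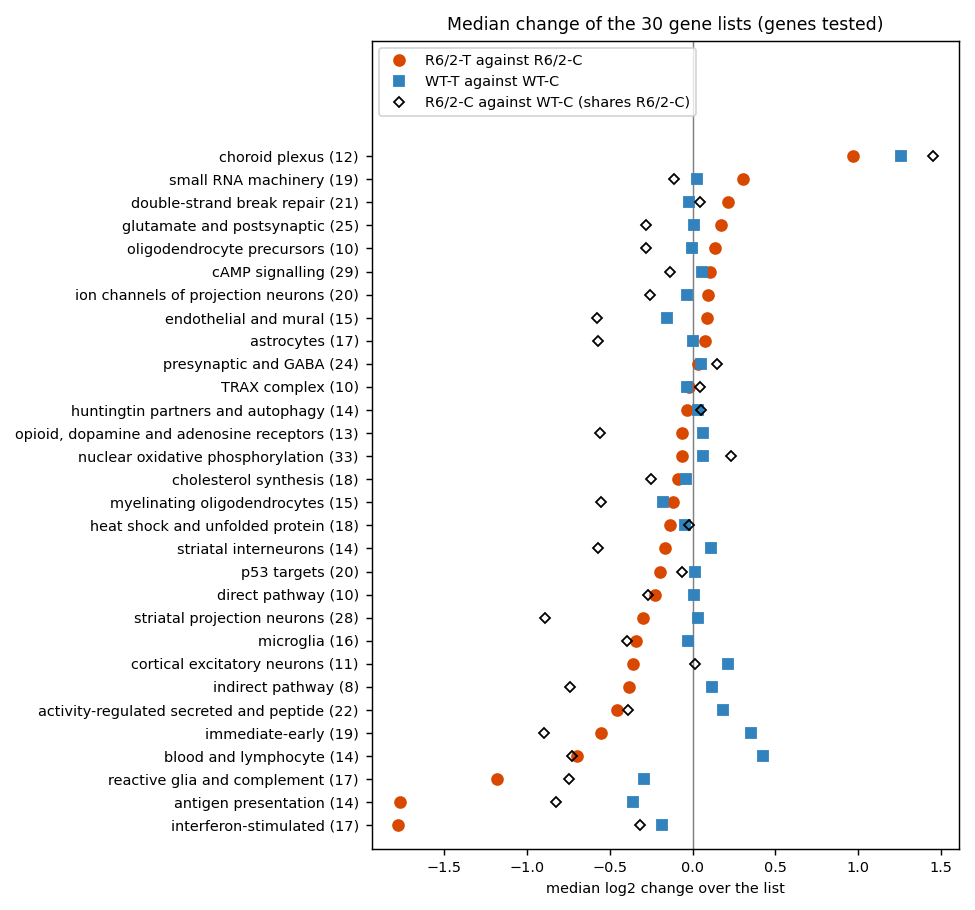
Median log2 change of the 30 gene lists for R6/2-T against R6/2-C (circles), WT-T against WT-C (squares) and R6/2-C against WT-C (open diamonds, sharing the R6/2-C libraries with the circles); numbers of genes tested stand in brackets. Interferon (−1.78), antigen presentation (−1.77) and reactive glia (−1.18) lists lie lowest and the choroid plexus list (0.97) highest in R6/2.

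The authors' deposited table for the same contrast, named as neuron-enriched by a criterion not given in the sources used here, lists 626 genes, 379 higher and 247 lower in R6/2-T, and marks 68 as significant (23 higher, 45 lower). It is built on the same 6 libraries and is no independent measurement. Of the 68 genes marked in the authors' deposited table, 33 have a mean FPKM under 0.5 in both groups, and 33 have a q-value under 0.05. Among all 626 listed, 291 have a q-value under 0.05 in that table, 213 higher and 78 lower. The mark goes with the size of the change. The smallest absolute log2 ratio marked is 1.001 and the largest not marked 0.9936. All 622 of its genes tested here had the same direction in StringTie counts, and 4 were called: Tsnax, Otud4, Slc5a3 and Dnajc27. In recovered fragments 606 of 611 had the same direction and 101 were called, which is 16.1% of the listed genes and 20.04% of all called in fragments.

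Of its leading genes, some had like values in both count columns and others did not. Klhl11, a ubiquitin ligase adaptor gene with a log2 ratio of 1.01 in the authors' deposited table, had 19.0, 27.8 and 17.7 CPM in R6/2-C and 48.1, 41.4 and 44.4 in R6/2-T by StringTie (1.05, edgeR adjusted p = 0.059; 1.07 in fragments, adjusted p = 0.0279). Tmem158, at −1.52 in the authors' deposited table, had 308, 156 and 175 CPM against 80.8, 73.7 and 75.7 (−1.47, edgeR adjusted p = 0.105; −1.39 in fragments). The neuronal nitric oxide synthase gene Nos1, at 1.17 in the authors' deposited table, had a change of 1.22 by StringTie and 0.43 in fragments, neither called. Btbd6, at −1.20 in the authors' deposited table, had −1.93 by StringTie and 0.02 in fragments, where it had 55.1, 39.4 and 44.1 against 47.0, 50.02 and 43.5 CPM. Krtap4-2 is listed at 0.0001 FPKM in R6/2-T and was not tested here.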

How the data were processed

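Members and gene lists were chosen with earlier results of these data known. Estimated counts per gene are the StringTie columns, per the file headers, whole numbers at 4.00 to 4.12 counts per fragment by library. The Cuffdiff columns hold a deposited signal of scaled fragments; scaled back, 95.9% to 97.1% of its values above 0 lay within 0.05 of a whole fragment, and the rest were rounded. FPKM, and the authors' deposited table with the ratio, log2 ratio and p-value of its comparison, carry no stated test. The submitters' processing notes name HISAT2, GRCm38 and bcl2fastq 2.20. The 12 Pearson columns were not used. StringTie counts, which the design had assumed to be plain counts, were tested with edgeR 4.0.16 (quasi-likelihood, robust, TMM, expression filter, 12 libraries, 4 group means) at a Benjamini-Hochberg adjusted p under 0.05, two-sided. Alternatives were DESeq2 1.42.0, limma 3.58.1, other scaling and filters, recovered fragments, a replicate block, single libraries left out and, added after seeing the data, per-library splines on GC content and transcript length (GENCODE annotation of GRCm38). Fits were tested on simulated data. Genes are named by a fixed rule: 13 genes of TRAX and the striatum, called genes with a name, up to 2 per list by smallest p, and leading genes of fragments, the authors' table and the interaction. Some further named genes are not printed. Vgf, Drosha, Dicer1, Ago2, Cd3e, Cd74, Ttr, Eya1, Isl1 and Ebf1 lie outside the rule and were added after their values were seen.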

Additional observations from a re-analysis of the deposited data

Results flagged for a closer look

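Phf3 was singled out because its shRNA change differed between genotypes by the interaction test: the change in R6/2 minus that in wild-type mice was 1.79 on the log2 scale by StringTie (edgeR adjusted p = 0.0302). In recovered fragments no gene passed that test, and the R6/2 change of Phf3 was 0.42 there.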

How the results depend on the processing

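Tsnax passed in all 25 alternatives, with log2 changes of −2.14 to −2.01 when single libraries were left out. The number of genes called for R6/2-T against R6/2-C, 16 in the StringTie counts, was 1741 by DESeq2, 101 by limma, 7 with only the 6 R6/2 libraries, and 2 to 1197 when single libraries were left out. Recovered fragments gave 504, and 460 with only the 6 R6/2 libraries; leaving out single libraries gave 1 to 1930. With GC content and length taken out the count was 6, or 178 without R6/2-C 2, and 44 in fragments. The interaction, 1 gene in the StringTie counts, gave 190 by DESeq2, 2 without a filter on low counts, 0 in recovered fragments (0 to 381 with single libraries left out), 0 in corrected fragments and 0 to 29 with single libraries left out of the StringTie counts. The cause of these differences was not tested.

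With the replicate number as a block, edgeR called 3 genes for R6/2-T against R6/2-C in StringTie counts and 2 in fragments, 1 with the block and the GC and length correction, and 0 for the interaction in all 3. The deviations of same-numbered libraries correlated at 0.08, −0.02 and 0.04, and those of differently numbered ones at −0.07 to 0.03. Such correlations cannot tell whether same-numbered libraries shared a batch or a handling step.

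Directions turned for genes that were not called, and for Ino80d. With GC and length taken out, Tsn had −0.15 (−0.13 with the block, −0.14 in fragments, −0.30 without R6/2-C 2), Gsk3b −0.00011 (−0.064 without R6/2-C 2) and Htt −0.014 (−0.013 with the block, −0.021 in fragments, −0.039 without R6/2-C 2). Without R6/2-C 2 in that correction, Disc1 had 0.051 and Ino80d −0.075. Pde10a ran from −0.36 to 0.53 when single libraries were left out. In fragments Pde10a had −0.038, −0.10 and −0.025 without R6/2-C 1, R6/2-C 3 and R6/2-T 1, and with the correction −0.21, −0.12 with the block and −0.23 in fragments. Btbd6 had 0.019 in fragments, 0.031 with the block, 0.013 with only the 6 R6/2 libraries, 0.17, 0.016 and 0.070 without R6/2-C 1, R6/2-T 1 and R6/2-T 3, and 0.30 with the correction.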
